A study of Drosophila melanogaster with 103 samples.

Results

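Of the 4492 H3K36me2 ChIP-seq peaks deposited for the Drosophila melanogaster lines D17 and S2, 865 had no base under a called H3K36me3 peak of the same line. They numbered 233 of 1620 peaks (14.4%, exact 95% binomial interval 12.7% to 16.2%) in D17 and 632 of 2872 peaks (22%, interval 20.5% to 23.6%) in S2. These peaks are called me3-free below, and the 1387 D17 and 2240 S2 peaks with at least 1 bp under H3K36me3 are called the other H3K36me2 peaks. Members were chosen by the positions of called H3K36me2 and H3K36me3 peaks, so their number is a description and carries no test. With the S2 list shortened by score to the 1620 peaks of D17, 194 S2 peaks were me3-free, fewer than the 233 of D17. That setting changes the length and the scores of the list together, so the part of length alone was not tested. A peak list holds only what passed the authors' peak caller, so me3-free means that no H3K36me3 peak was called, not that the mark was absent.

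The series profiled Polycomb group proteins, trithorax group proteins and histone marks by ChIP-seq, with 41 libraries from D17 (ML-DmD17-c3, a line from larval imaginal discs), 41 from S2 (S2-DRSC, an embryonic line with features of blood cells) and 21 from Kc167 (an embryonic line also with features of blood cells). Each antibody had 2 replicates per line, from cells fixed in separate flasks, and each line had 1 input. No treatment or genotype difference is given for the lines beyond their origin, and each is 1 established culture. Each deposited list combines an antibody and a line, so the spread between replicates could not be measured and no difference below has a test. Intervals are exact binomial 95% intervals on counts of peaks and cover counting error only. Of 17 blood cell marker genes, 4 carried an H3K4me3 peak in D17 and 7 in S2, and of 20 imaginal disc marker genes, 8 carried one in D17 and 4 in S2.

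Methylation of histone H3 at lysine 36 marks transcribed chromatin. In Drosophila the dimethyl form is made by Ash1, a trithorax group protein, and by NSD, while Set2 travels with elongating RNA polymerase II and makes the trimethyl form over the bodies of transcribed genes. Lysine 36 methylation opposes the Polycomb repressive complex PRC2, whose product H3K27me3 covers silent developmental genes. H3K27ac marks active enhancers and promoters, H3K4me3 marks active promoters, and H3K4me2 marks both kinds of element.

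Me3-free peaks were narrower than the other H3K36me2 peaks and, in S2, weaker. Their median width was 3735 bp in D17, against 6581 bp for the other D17 peaks, and 3008 bp in S2, against 7698 bp for the other S2 peaks. They held 1.05 of 12.7 Mb of D17 H3K36me2 (8.28% of its length) and 2.81 of 25.6 Mb of S2 H3K36me2 (11%). The authors' fold enrichment over background, whose minimum in both lists was 1.5, had a median of 1.56 in me3-free and 1.57 in other D17 peaks. In S2 the medians were 1.60 in me3-free peaks and 1.73 in the other peaks. Of the me3-free peaks, 55.4% in D17 and 73.6% in S2 fell in the lower 50% of their list by fold, and 13 in D17 and 23 in S2 were in its highest 10%. The median −log10 q was 2.99 in me3-free and 3.55 in other D17 peaks, and 5.47 in me3-free and 8.50 in other S2 peaks. The D17 folds lie close together, while the widths separate the groups in both lines.

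**Figure D1:**
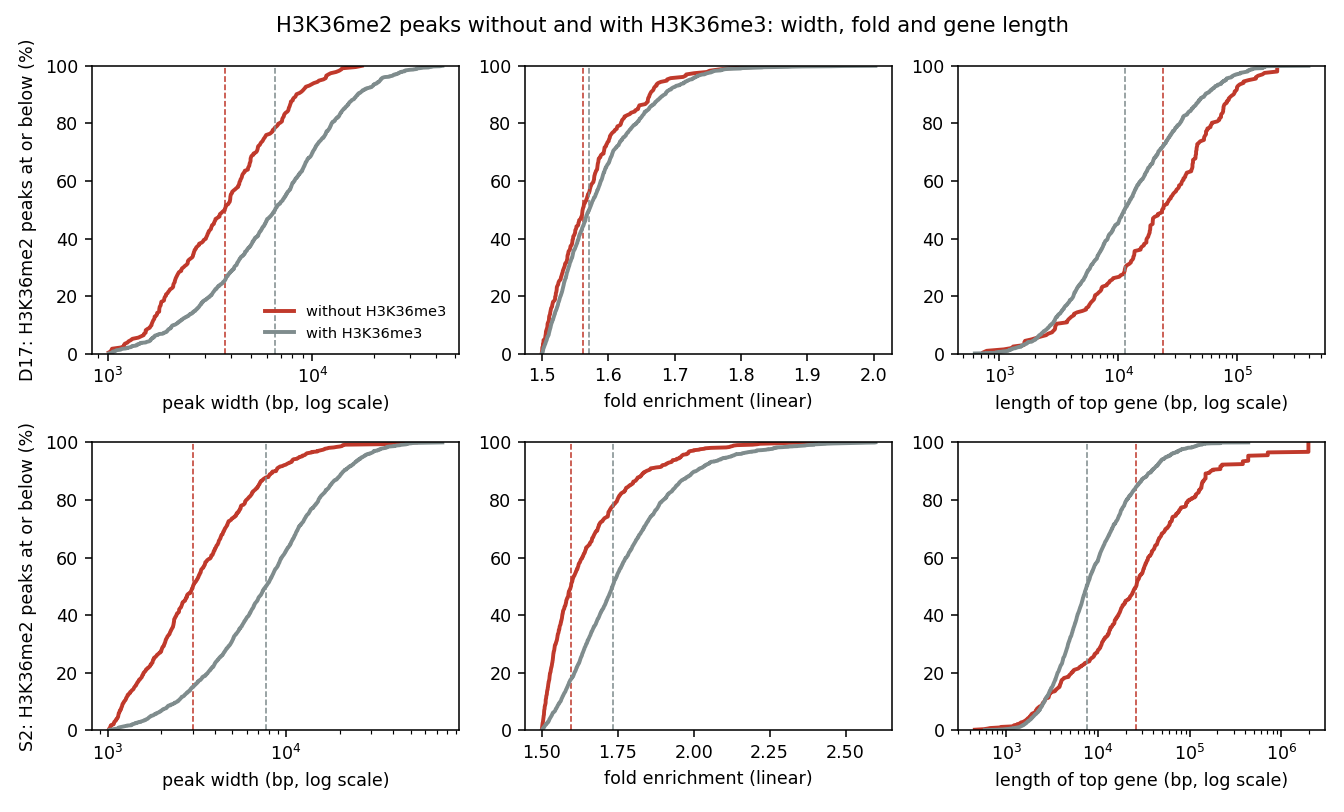
Cumulative share of H3K36me2 peaks (y axis, %) by peak width in bp, the authors' fold enrichment and the length in bp of the gene most covered, for D17 (upper row) and S2 (lower row), with red lines for me3-free peaks, grey lines for the other H3K36me2 peaks and dashed lines at the medians. The red width curves lie to the left of the grey ones (medians 3735 against 6581 bp in D17 and 3008 against 7698 bp in S2) and the red gene length curves lie to the right of the grey ones at the medians (23643 against 11354 bp in D17 and 26104 against 7529 bp in S2).

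By the rule, me3-free peaks lay clear of H3K36me3 peaks, at widely varied distances. Their median distance to the nearest H3K36me3 peak was 12417 bp in D17 and 16980 bp in S2. The quartiles were 4234 and 33348 bp in D17 and 4961 and 59421 bp in S2. No distance for other uncovered sequence was computed for comparison. At the edge of the rule, the nearest D17 members lay 454, 669 and 726 bp from H3K36me3, the last 2 of them at CG9837 and CG15155. The nearest S2 members lay 13 bp (in Parp1, the poly-ADP-ribose polymerase gene), 295 bp (in par-1, a polarity kinase gene) and 521 bp (in Task6, a potassium channel gene) away. Just outside the rule, D17 peaks had 109 bp (in dnc, the cAMP phosphodiesterase gene), 163 bp (RhoGAP92B) and 246 bp under H3K36me3. In S2 those values were 96 bp (Ak1), 164 bp (CG14024) and 264 bp.

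Compared with the other H3K36me2 peaks, me3-free peaks more often lay inside 1 gene or outside genes. They less often spanned a gene end. In D17, 66.1% (interval 59.6% to 72.1%) lay wholly within 1 protein-coding gene and in S2 62%, against 44.7% of the other D17 peaks and 32.4% of the other S2 peaks. A gene end lay under 27% of me3-free D17 peaks and 24.7% of me3-free S2 peaks, against 61% and 70.5% of the other peaks in D17 and in S2. No protein-coding gene was touched by 31 me3-free D17 peaks (13.3%) and 114 me3-free S2 peaks (18%), against 2.31% of the other D17 peaks and 1.43% of the other S2 peaks. For scale, 33.1% of the span between the first and last gene of the chromosomes lies outside protein-coding genes. That is a share of bases, while the shares above count whole peaks without a gene base. The measures are unlike, so no order is read from them. Narrow peaks reach fewer gene ends, and the part of width in these shares was not tested.

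The gene most covered by each me3-free peak had a median length of 23643 bp in D17 (202 peaks) and 26104 bp in S2 (518 peaks). The other H3K36me2 peaks had medians of 11354 bp in D17 and 7529 bp in S2. The gene that holds the median base of all gene bodies is 25616 bp long, close to both me3-free medians and above both medians of the other peaks. Counting each gene once, the 172 D17 genes most covered by a me3-free peak had a median length of 19416 bp and the 416 S2 genes 17286 bp. The corresponding medians for the other peaks were 10267 bp over 1262 D17 genes and 7127 bp over 2088 S2 genes. In S2, 46 genes with several members carried 148 of the me3-free peaks, and in D17 25 such genes carried 55. Myo81F, an unconventional myosin gene of 1965857 bp next to the centromere of 3R, held 18 of them.

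Some of these genes carried H3K36me3 elsewhere along their body. The share among all genes, or among genes of like length, was not computed for comparison. In D17, 89 of 202 me3-free peaks on genes (44.1%, interval 37.1% to 51.2%) lay on a gene with H3K36me3 at another place, and in S2 179 of 518 (34.6%, interval 30.5% to 38.8%). Such genes were long, with medians of 52385 bp in D17 and 44162 bp in S2. Genes without any H3K36me3 peak had medians of 11787 bp in D17 and 15236 bp in S2. A longer gene offers more places for a second peak, and that contribution was not tested.

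Marks of active elements covered fewer me3-free peaks than other H3K36me2 peaks in both lines. H3K27ac overlapped 93 of 233 me3-free D17 peaks (39.9%, interval 33.6% to 46.5%), against 81.8% of the other D17 peaks and 75.7% of the whole D17 list. In S2 it overlapped 194 of 632 me3-free peaks (30.7%, interval 27.1% to 34.5%), against 83.3% of the other peaks and 71.7% of the whole list. H3K4me2 overlapped 42.9% of me3-free D17 peaks, against 86.7% of the others and 80.4% of the list, and 36.1% of me3-free S2 peaks, against 82.5% of the others and 72.3% of the list. The promoter mark H3K4me3 overlapped 19.3% of me3-free D17 peaks, against 49.1% of the others and 44.8% of the list. Its S2 values were 10.1% of me3-free peaks, 70.5% of the other peaks and 57.2% of the list. For these 3 marks the intervals of me3-free and other peaks lay apart in both lines.

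The gap remained at matched widths. Among peaks of 2000 to 4000 bp, a band chosen after the widths were seen, H3K27ac overlapped 35.9% of 78 me3-free D17 peaks and 74.7% of 277 other D17 peaks. In S2 it overlapped 27.7% of 224 me3-free peaks and 72.9% of 369 other peaks of that width. H3K4me2 in the same band covered 37.2% of me3-free and 83.4% of other D17 peaks, and 34.4% of me3-free and 69.9% of other S2 peaks. By length of chromatin, H3K27ac covered 13% of me3-free and 25.5% of other H3K36me2 in D17, and 11.7% of me3-free and 26.8% of other H3K36me2 in S2.

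Where a me3-free peak did meet an active mark, that mark was also lower in its own list, most clearly in S2. The strongest H3K4me2 peak over a me3-free S2 peak had a median authors' fold of 2.15, against 5.61 over the other S2 peaks, and its median place in the S2 H3K4me2 list was percentile 26.4, against percentile 79.5. For H3K27ac in S2 the median folds were 2.67 over me3-free and 3.79 over other peaks. In D17 the H3K4me2 medians were 2.43 over me3-free and 4.00 over other peaks, and the H3K27ac medians were 2.81 over me3-free and 3.01 over other peaks. The wider peaks have more places for a strong element, and its part in these medians was not tested.

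**Figure D2:**
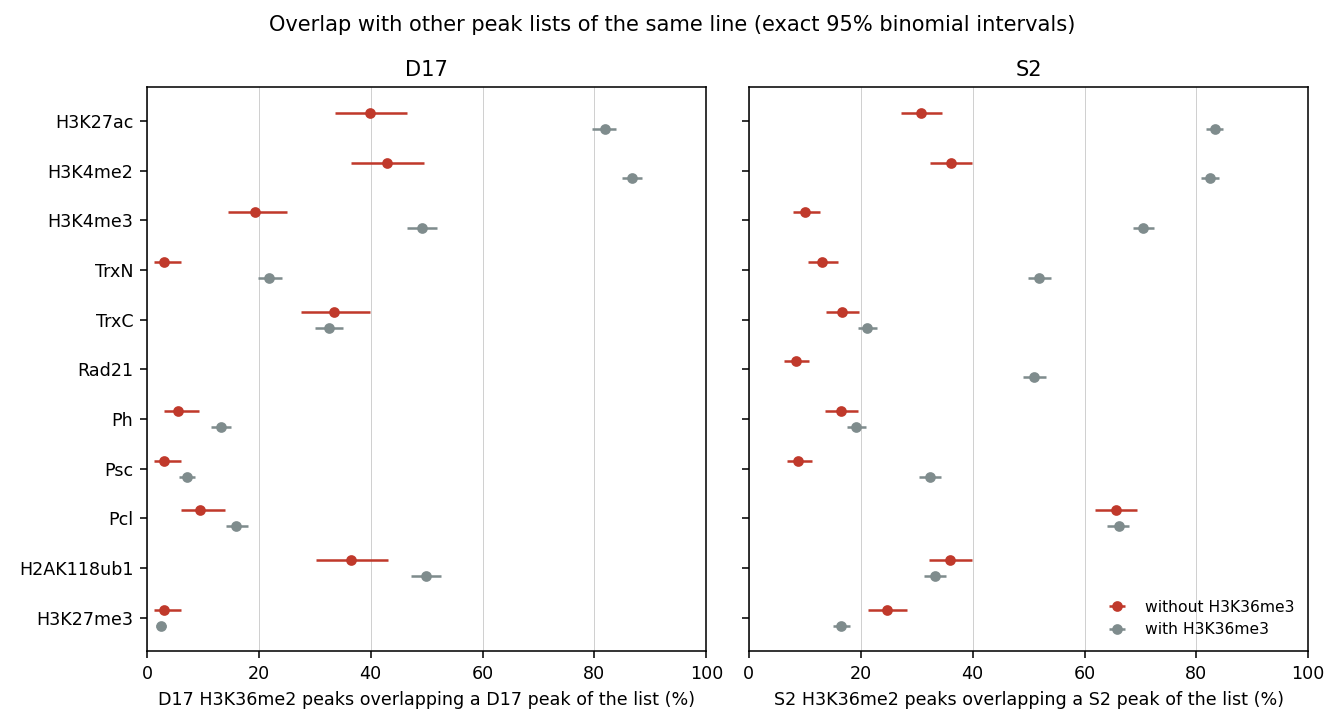
Share of D17 (left) and S2 (right) H3K36me2 peaks that overlapped a peak of each other list of the same line by at least 1 bp (x axis, %), in red for me3-free peaks and grey for the other H3K36me2 peaks, with exact 95% binomial intervals as bars. The active marks separate the colours in both lines (H3K27ac 39.9% against 81.8% in D17 and 30.7% against 83.3% in S2), while H3K27me3 is near 3% in D17 for both and 24.7% against 16.5% in S2; no D17 Rad21 list was used.

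By combination of marks, the largest class of me3-free peaks in each line had none of H3K27ac, H3K4me2, H3K4me3 and H3K27me3. It held 100 D17 peaks (42.9%) and 271 S2 peaks (42.9%), against 8.22% of the other D17 peaks and 10.5% of the other S2 peaks. H3K27ac without H3K4me3 or H3K27me3, the combination of a distal active element, marked 26.6% of me3-free D17 peaks and 17.1% of me3-free S2 peaks, against 33.1% of the other D17 peaks and 13.9% of the other S2 peaks. H3K27ac together with H3K4me3 marked 13.3% of me3-free D17 and 7.75% of me3-free S2 peaks, against 46.9% of the other D17 and 54.8% of the other S2 peaks. The H3K27ac gap lay mostly in this class with the promoter mark.

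H3K27me3 overlapped few me3-free peaks in D17 and about 1 in 4 in S2. In D17, 7 of 233 me3-free peaks met it (3%, interval 1.22% to 6.09%), against 2.45% of the other peaks and 2.53% of the list. By length it covered 1.71% of me3-free and 0.414% of other D17 H3K36me2. In S2, 156 of 632 met it (24.7%, interval 21.4% to 28.2%), against 16.5% of the other peaks and 18.3% of the list. The S2 order by peaks was not stable, since it turned to 14.9% of me3-free and 17.9% of other peaks when the S2 list was shortened by score to the length of the D17 list. By length the order was the same in each setting tried, with 23% of me3-free S2 chromatin under H3K27me3, against 4.37% of the other S2 H3K36me2, and 7.98% against 4.26% in the shortened list. Among S2 peaks of 2000 to 4000 bp, 24.1% of me3-free and 7.32% of other peaks met it.

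The S2 peaks with both marks were mostly embedded in H3K27me3 domains. Of the 156, 77 lay wholly under H3K27me3, and 76% of their combined length was covered by it. Their median width was 3402 bp and their median H3K36me2 fold 1.57, against 2918 bp and 1.61 in the 476 me3-free S2 peaks without H3K27me3. Pcl, a PRC2 accessory protein, overlapped 89.1% of them and 58% of the 476. The PRC1 product H2AK118ub1 overlapped 51.9% and 30.7%, Scm, a Polycomb protein that joins PRC1 and PRC2, 30.8% and 9.03%, and Pc, the PRC1 subunit that reads H3K27me3, 21.8% and 8.4% of the same 2 sets. H3K27me3 of the other lines also met them more often, with D17 H3K27me3 over 37.8% of the 156 and 15.5% of the 476, and Kc167 H3K27me3 over 42.3% and 17.4%.

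S2 members under H3K27me3 included peaks in genes of the nervous system and of development. Within dpr11, which encodes a neuronal immunoglobulin-domain protein, 3 me3-free S2 peaks covered 83.1% of the gene, all of which lay under S2 H3K27me3. The widest of them ran 43929 bp (3R:6543113-6587041, dm6) at fold 1.5, and D17 had no H3K36me2, H3K36me3 or H3K27me3 peak over it. Both me3-free S2 peaks of bab1, a leg and abdomen patterning gene, and the S2 peaks in ap, the dorsal wing selector gene, Hr38, a nuclear receptor gene, and Psc, which encodes a PRC1 subunit, lay wholly under H3K27me3. Their folds were 1.51 and 1.52 in bab1, 1.53 in Hr38, 1.63 in ap and 1.79 in Psc. The S2 list had a median fold of 1.71 and a minimum of 1.5. CG33144 carried one at fold 2.22, wholly under both H3K27me3 and H2AK118ub1, while D17 had H3K36me3 over 99% of the same bases.

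Among the Polycomb and trithorax proteins, most lists, counted by peaks, met fewer me3-free than other peaks. TrxN, the amino-terminal part of Trithorax, overlapped 3% of me3-free D17 peaks, against 21.9% of the others and 19.2% of the list, and 13.1% of me3-free S2 peaks, against 51.9% of the others and 43.4% of the list. The cohesin subunit Rad21, listed for S2, overlapped 8.39% of me3-free peaks, against 51% of the others and 41.6% of the list. Psc overlapped 3% of me3-free and 7.07% of other D17 peaks (6.48% of the list), and 8.86% of me3-free and 32.4% of other S2 peaks (27.2% of the list). TrxC, the carboxy-terminal part of Trithorax, overlapped 33.5% of me3-free D17 peaks, 32.6% of the others and 32.7% of the list. In S2 it overlapped 16.6% of me3-free peaks, 21.2% of the others and 20.2% of the list. The intervals of me3-free and other peaks overlapped for Psc in D17 and for TrxC in both lines. By length TrxC covered 16.6% of me3-free and 9.18% of other D17 H3K36me2.

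Counted by peaks, 4 proteins bound at Polycomb response elements met fewer me3-free than other peaks in both lines. Pho, which binds DNA there, overlapped 4.72% of me3-free D17 peaks, against 18.7% of the others and 16.7% of the list, and 10.8% of me3-free S2 peaks, against 24.5% of the others and 21.5% of the list. GAF overlapped 12.9% of me3-free and 21.9% of other D17 peaks (20.6% of the list), and 10.8% of me3-free and 26.1% of other S2 peaks (22.7% of the list). Sfmbt, the partner of Pho, overlapped 5.58% of me3-free and 9.01% of other D17 peaks (8.52% of the list), and 6.96% of me3-free and 31.7% of other S2 peaks (26.3% of the list). Spps gave 7.73% of me3-free and 12.8% of other D17 peaks (12% of the list), and 12.5% of me3-free and 29.6% of other S2 peaks (25.8% of the list). For Sfmbt and Spps the D17 intervals of me3-free and other peaks overlapped. By length the order differed: Pho covered 0.599% of me3-free and 1.57% of other D17 H3K36me2, but 1.67% of me3-free and 1.48% of other S2 H3K36me2. Spps covered 0.935% of me3-free and 0.925% of other D17 H3K36me2, and 2.07% of me3-free and 1.75% of other S2 H3K36me2. GAF and Sfmbt kept the lower value in members by length in both lines.

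The core Polycomb subunits were listed over few members. Ph, of PRC1, overlapped 5.58% of me3-free and 13.2% of other D17 peaks (12.1% of the list), and 16.5% of me3-free and 19.2% of other S2 peaks (18.6% of the list). Pc overlapped 5.15% of me3-free and 4.83% of other D17 peaks (4.88% of the list), and 11.7% of me3-free and 9.69% of other S2 peaks (10.1% of the list). E(z), the PRC2 enzyme, overlapped 3.86% of me3-free and 7.57% of other D17 peaks (7.04% of the list), and 7.59% of me3-free and 11.4% of other S2 peaks (10.6% of the list). For Pc the intervals of me3-free and other peaks overlapped in both lines, for Ph in S2 and for E(z) in D17. By length, all 3 covered more of the me3-free than of the other S2 H3K36me2, Ph 2.48% against 0.986%, Pc 3.27% against 0.681% and E(z) 1.38% against 0.534%. In D17 the values by length were 0.656% of me3-free and 1.09% of other H3K36me2 for Ph, 1.66% and 0.671% for Pc, and 0.441% and 0.577% for E(z). Engrailed (En), a homeodomain repressor listed for D17, overlapped 5 of 233 me3-free peaks (2.15%), against 8.51% of the others and 7.59% of the list.

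Scm went opposite ways in the lines, while H2AK118ub1 met fewer me3-free than other peaks in D17 and had overlapping intervals in S2. Scm overlapped 3% of me3-free and 9.66% of other D17 peaks (8.7% of the list), but 14.4% of me3-free and 6.16% of other S2 peaks (7.97% of the list). H2AK118ub1 overlapped 36.5% of me3-free and 49.9% of other D17 peaks (48% of the list), and 35.9% of me3-free and 33.3% of other S2 peaks (33.8% of the list). By length it covered 27.3% of me3-free and 28.2% of other D17 H3K36me2, and 29.7% of me3-free and 13.6% of other S2 H3K36me2. Pcl overlapped 9.44% of me3-free and 16% of other D17 peaks (15.1% of the list). It overlapped 65.7% of me3-free and 66.1% of other S2 peaks (66% of the list), while by length it covered 25.2% of me3-free and 12.8% of other S2 H3K36me2.

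The members were unevenly spread over the chromosomes. Chromosome 4, the small dot chromosome rich in heterochromatin, stood apart in D17, where 20 of its 31 H3K36me2 peaks were me3-free (64.5%, interval 45.4% to 80.8%). In S2 it was 9 of 47 (19.1%, interval 9.15% to 33.3%). On the long arms and X the share was between 9.91% and 18.7% in D17 and between 16.9% and 25.2% in S2. H3K36me3 peaks covered 0.0777 Mb of chromosome 4 in D17, against 0.366 Mb in S2, and covered 0.286 Mb of it in Kc167. S2 H3K36me3 lay over 12 of the 20 D17 members there. Of the 80 protein-coding genes of chromosome 4, 15 were touched by a me3-free D17 peak, and 14 of these 15 carried H3K36me3 in S2 and 2 in D17. The S2 H3K36me3 share of the 11 other D17 H3K36me2 peaks there, and the H3K36me3 share of all 80 genes, were not computed for comparison.

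Genes of chromosome 4 gave some of the best covered examples. In pan, the TCF transcription factor gene of the Wnt pathway, 3 me3-free D17 peaks covered 52.7% of 44945 bp and no D17 H3K36me3 was called, while S2 H3K36me3 covered 20.6%. The pan peak of 17468 bp (4:91180-108647, dm6) was the widest of all D17 members, at fold 1.77. In 4E-T, which encodes a translational repressor, a me3-free D17 peak covered 89.3% of the gene and S2 H3K36me3 92.1%. PlexA, a semaphorin receptor gene, had 33.3% under me3-free D17 peaks, and S2 H3K36me3 covered 57.2% of it. Eph, an ephrin receptor gene, had 28.3% under a me3-free D17 peak and 88.1% under S2 H3K36me3. No chromosome 4 member of D17 met H3K27ac, of which the whole chromosome held 17 peaks in D17 and 29 in S2. The H3K27ac share of the other D17 H3K36me2 peaks there was not computed for comparison.

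Members also gathered near centromeres. In the 3 Mb of 2L, 2R, 3L, 3R and X nearest the centromere, a distance chosen after the positions were seen, 46 of 112 D17 H3K36me2 peaks (41.1%, interval 31.9% to 50.8%) and 149 of 236 S2 peaks (63.1%, interval 56.6% to 69.3%) were me3-free. Elsewhere on those chromosomes the shares were 11.3% of 1476 D17 peaks and 18.3% of 2587 S2 peaks. Proximal members were poor in H3K27ac, at 15.2% in D17 and 17.4% in S2, against 51.5% of D17 and 35.2% of S2 members elsewhere. TrxC overlapped 56.5% of the proximal D17 members and 28.7% of the D17 members elsewhere. The H3K27ac and TrxC shares of the other proximal H3K36me2 peaks were not computed, so these values are not particular to members. In S2, 38.9% of the proximal members touched no protein-coding gene, and those on genes lay on very long ones (median 215672 bp). How well reads map to these repeat-rich stretches, and what that does to the lists, was not tested. With chromosome 4 and the proximal stretches left out, H3K27ac still overlapped fewer me3-free than other peaks, at 51.5% against 83.1% in D17 and 35.2% against 85.3% in S2. The 3 Mb cut kept Gprk1 on 2R (10 S2 members) and AGO3 on 3L (4 S2 members) among those elsewhere. Whether repeat-rich chromatin reaches past the cut was not tested.

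**Figure D3:**
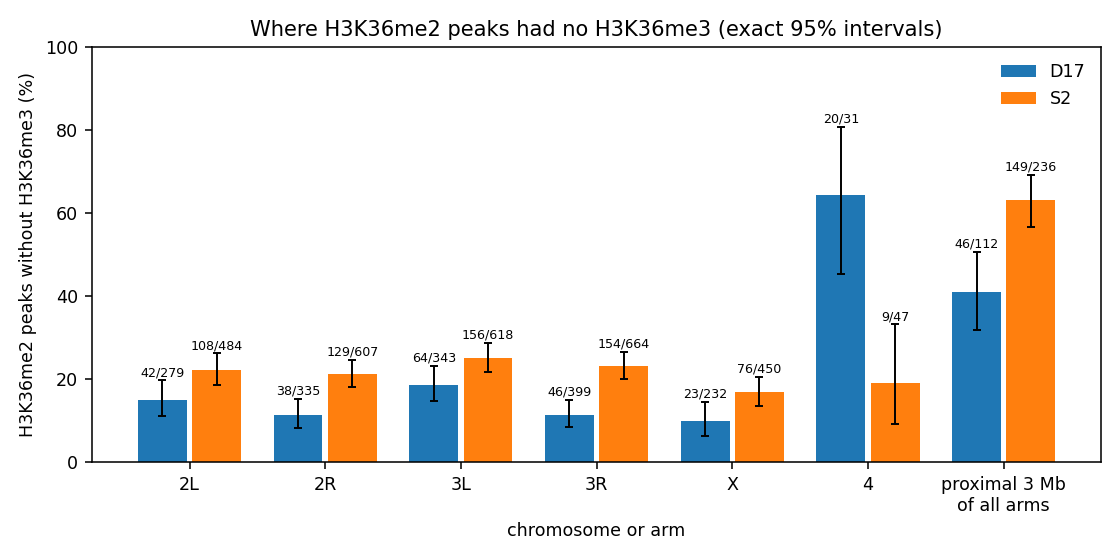
Share of H3K36me2 peaks that were me3-free (y axis, %) on each chromosome arm, on chromosome 4 and in the 3 Mb of all arms nearest the centromere (x axis), for D17 (blue) and S2 (orange), with exact 95% binomial intervals and counts above the bars. Chromosome 4 stands out in D17 (20 of 31) and not in S2 (9 of 47), while the proximal stretches stand out in both lines (46 of 112 and 149 of 236).

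Me3-free D17 peaks were shared with the other line less than the other D17 peaks, and in S2 the size of this gap depended on the setting. Of the D17 members, 39.9% (interval 33.6% to 46.5%) overlapped any S2 H3K36me2 peak, against 85.4% of the other D17 peaks and 78.8% of the list. Of the S2 members, 28.8% (interval 25.3% to 32.5%) overlapped any D17 H3K36me2 peak, against 48.8% of the other S2 peaks and 44.4% of the list. The S2 list is the longer one, and with lists of equal length the member shares were 24.9% in D17 and 48.5% in S2, so the order of the lines turned. The S2 gap between members and other peaks also narrowed then, to 48.5% against 56.1%. It was 29.5% against 36.6% among peaks of 2000 to 4000 bp, 26.1% against 33.7% for overlaps of at least 50% of the width, and 33.7% against 34.3% in the higher-scoring 50% of the H3K36me2 list. It turned to 44.9% against 43.7% when only the higher-scoring 50% of the H3K36me3 list defined the members. The D17 gap kept its direction in every setting tried.

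Few positions were me3-free in both lines. There were 38 D17 members that overlapped 38 S2 members, which is 16.3% of the D17 and 6.01% of the S2 members, over 0.127 Mb. A me3-free S2 peak with no other S2 H3K36me2 or H3K36me3 peak lay at 14.6% of D17 members, against 7.28% of the other D17 peaks. Likewise, a me3-free D17 peak alone lay at 6.01% of S2 members, against 2.23% of the other S2 peaks. The state was thus infrequent in both sets of peaks, and more frequent at members. Of the genes most covered, 52 were common, which is 30.2% of 172 D17 genes and 12.5% of 416 S2 genes. Of the 13935 protein-coding genes, a me3-free peak touched 1.6% in D17 and 4.28% in S2, while any H3K36me2 peak touched 22.6% in D17 and 54.7% in S2.

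H3K36me3 and the active marks of the other line were rarer at members than at the other H3K36me2 peaks. S2 H3K36me3 overlapped 56 D17 members (24%), against 80.4% of the other D17 peaks and 72.3% of the list, and D17 H3K36me3 overlapped 189 S2 members (29.9%), against 92.5% of the other S2 peaks and 78.7% of the list. S2 H3K27ac overlapped 26.6% of D17 members, against 65.8% of the other D17 peaks and 60.2% of the list. D17 H3K27ac overlapped 32.1% of S2 members, against 86.2% of the other S2 peaks and 74.3% of the list. These shares show that positions without H3K36me3 in 1 line mostly had no called H3K36me3 in the other. S2 H3K4me2 overlapped 25.8% of D17 members, against 65.7% of the other D17 peaks and 59.9% of the list. S2 H3K27me3 overlapped 9.01% of D17 members, against 15.9% of the other D17 peaks and 14.9% of the list.

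The peaks of the other line that overlapped members varied. At D17 members, S2 had 5 states. A me3-free peak with no other H3K36me2 or H3K36me3 peak lay at 34 (14.6%). An H3K36me2 peak that meets H3K36me3 somewhere along its length lay at 59 (25.3%). H3K36me3 without H3K36me2 lay at 6 (2.58%), only H3K27me3 at 19 (8.15%), and none of the 3 marks at 115 (49.4%). The 25.3% includes 1 member whose S2 H3K36me2 peak was me3-free beside a separate S2 H3K36me3 peak. H3K36me3 of that state need not lie at the bases of the member, and S2 H3K36me3 overlapped 56 D17 members. At S2 members, D17 had those 5 states at 38 (6.01%), 144 (22.8%), 62 (9.81%), 124 (19.6%) and 264 peaks (41.8%). Among the other H3K36me2 peaks, the share with none of the 3 marks in the other line was 7.07% in D17 and 4.02% in S2. D17 H3K27me3 alone lay over 19.6% of S2 members, and the D17 H3K27me3 list as a whole met 21% of them, against 5.09% of the other S2 peaks and 8.6% of the S2 list. D17 H3K4me2 overlapped 58.7% of S2 members, more than the 36.1% that S2 H3K4me2 did, and it overlapped 88.5% of the other S2 peaks and 81.9% of the list. The D17 H3K4me2 list is the longer, with 14139 peaks against 8797 in S2.

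Kc167, for which no H3K36me2 list was used, was compared through its H3K36me3 and H3K27me3 lists. Its H3K36me3 overlapped 59 D17 members (25.3%, interval 19.9% to 31.4%) and 127 S2 members (20.1%, interval 17% to 23.4%). It overlapped 80.8% of the other D17 peaks and 72.8% of the D17 list, and 92.2% of the other S2 peaks and 76.3% of the S2 list. Kc167 H3K27me3 overlapped 13.7% of D17 members, against 20.5% of the other D17 peaks and 19.5% of the list, and 23.6% of S2 members, against 17.9% of the other S2 peaks and 19.2% of the list.

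**Figure D4:**
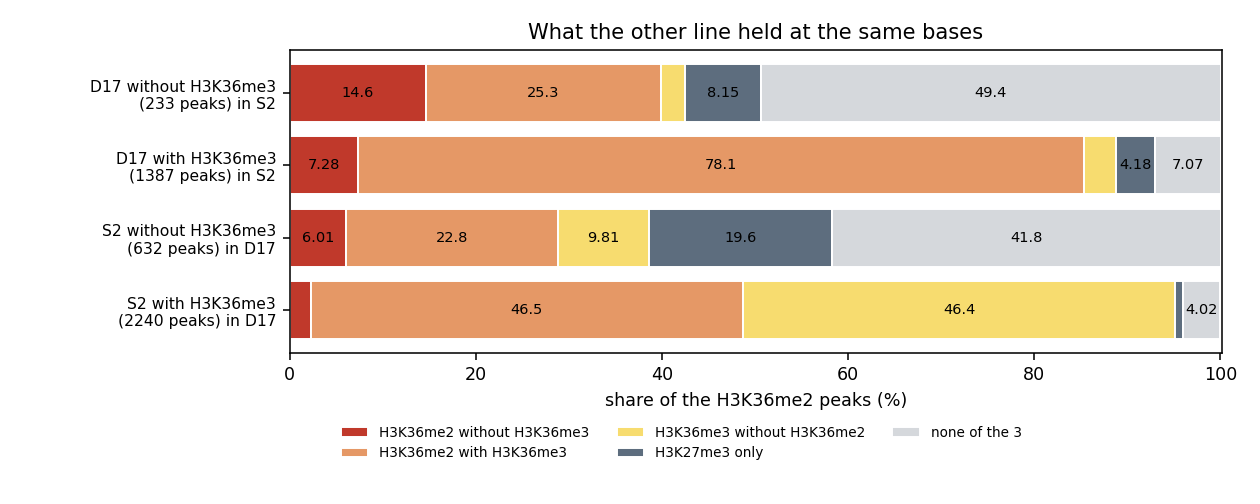
Stacked shares (x axis, %) of D17 and S2 H3K36me2 peaks by the peaks of the other line that overlapped them, for me3-free peaks and for the other H3K36me2 peaks (labelled with H3K36me3), each peak counted once and placed under H3K36me2 with H3K36me3 where it met both kinds of H3K36me2 peak. That state counts H3K36me3 anywhere along the H3K36me2 peak of the other line, not only at the shared bases. None of the 3 marks was the most frequent state for me3-free peaks (49.4% of D17 and 41.8% of S2 members), and H3K36me2 with H3K36me3 was it for the other peaks (78.1% in D17 and 46.5% in S2).

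The members of highest fold lay in genes of several kinds. In D17 the highest fold, 1.83, lay outside genes (3L:24672177-24675413, dm6) with 99.1% of its width under H3K27me3. Among members on genes the highest were vtd, the gene of the Rad21 cohesin subunit, at 1.82, par-1 at 1.78, pan at 1.77, nrm, an adhesion gene, at 1.75, sd, which encodes the TEAD partner of Yorkie in wing growth, at 1.75, step, an Arf exchange factor gene, at 1.73, DIP-gamma, a neuronal adhesion gene, at 1.72, and rl, the ERK kinase gene, at 1.72. Of these 8 genes, 4 (vtd, pan, nrm and rl) had none of the 4 marks at the peak. In S2 the highest were MFS17 at 2.40, mbl, the muscleblind splicing factor gene, at 2.31, CG12290 at 2.27, CG33144 at 2.22, ckn at 2.21, chrb, a TOR pathway inhibitor gene, at 2.19, Eip74EF, an ecdysone-induced ETS factor gene, at 2.14, and Hr39, a nuclear receptor gene, at 2.13. At 7 of these 8, all but MFS17, D17 carried H3K36me3 over 57.6% to 100% of the peak.

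Several genes had me3-free peaks in 1 line that lay partly or wholly under H3K36me3 of the other line. In rl, me3-free D17 peaks covered 55.7% of 54466 bp, and D17 H3K36me3 covered 4.27%, while S2 H3K36me3 covered 76.5%. In gus, a SOCS box gene, a me3-free D17 peak covered 93.4% and S2 H3K36me3 92.2%. In alpha-Cat, the adherens junction catenin gene, the values were 47.3% and 94.2%, and in Stlk 66.1% and 76.6%. These D17 examples lay toward the centromere of their arms, rl from 2R:1071462, Stlk from 2R:4546691, gus from 2R:5116990 and alpha-Cat from 3L:23318646. How well reads map there was not tested. The other way round, robo2, a receptor for the guidance cue Slit, had 44.3% of its length under a me3-free S2 peak and 37.1% under D17 H3K36me3. The robo2 peak, 20013 bp wide (2L:1377940-1397952, dm6), had none of the 4 marks, and D17 H3K36me3 lay over 77.1% of it. Plc21C, a phospholipase C gene, had 67.1% under a me3-free S2 peak and 25% under D17 H3K36me3. In osa, a trithorax group gene for a Brahma complex subunit, me3-free S2 peaks covered 52.5% and D17 H3K36me3 34.6%. A me3-free D17 peak also covered 8.56% of osa. In mub and Pgant9, S2 members covered 15.9% and 22.7% of the gene, and D17 H3K36me3 13.5% and 18.1%. Pgant9 also had S2 H3K36me3 over 2.26% of its length.

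Other genes with a me3-free peak in 1 line lay under H3K27me3 in the other, in some cases in both lines. In bi, the T-box gene of wing patterning, 2 me3-free D17 peaks covered 18.2% of 72792 bp, and S2 H3K27me3 covered 91.5%. At the wider one (X:4428402-4440025, dm6), D17 H3K27ac lay over 82.1% of the width and S2 H3K27me3 over 100%. Egfr, the epidermal growth factor receptor gene, had 13.2% under a me3-free D17 peak and all of its length under S2 H3K27me3. Su(z)2, a relative of Psc, had 37.3% and 83.8%. Tet, a methylcytosine dioxygenase family gene, had 6.89% and 19.8%. In cnc, the Nrf2 gene, both lines had me3-free peaks, over 8.6% of the gene in D17 and 18.1% in S2, and H3K27me3 covered 48.3% of it in D17 and 50.6% in S2. In uif, a me3-free S2 peak covered 28.9%, and H3K27me3 covered 46% in D17 and 46.8% in S2. CG45263 had 16.9% under a me3-free S2 peak, and H3K27me3 covered 71.8% of it in D17 and 37.3% in S2, including all of the S2 peak.

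**Figure D5:**
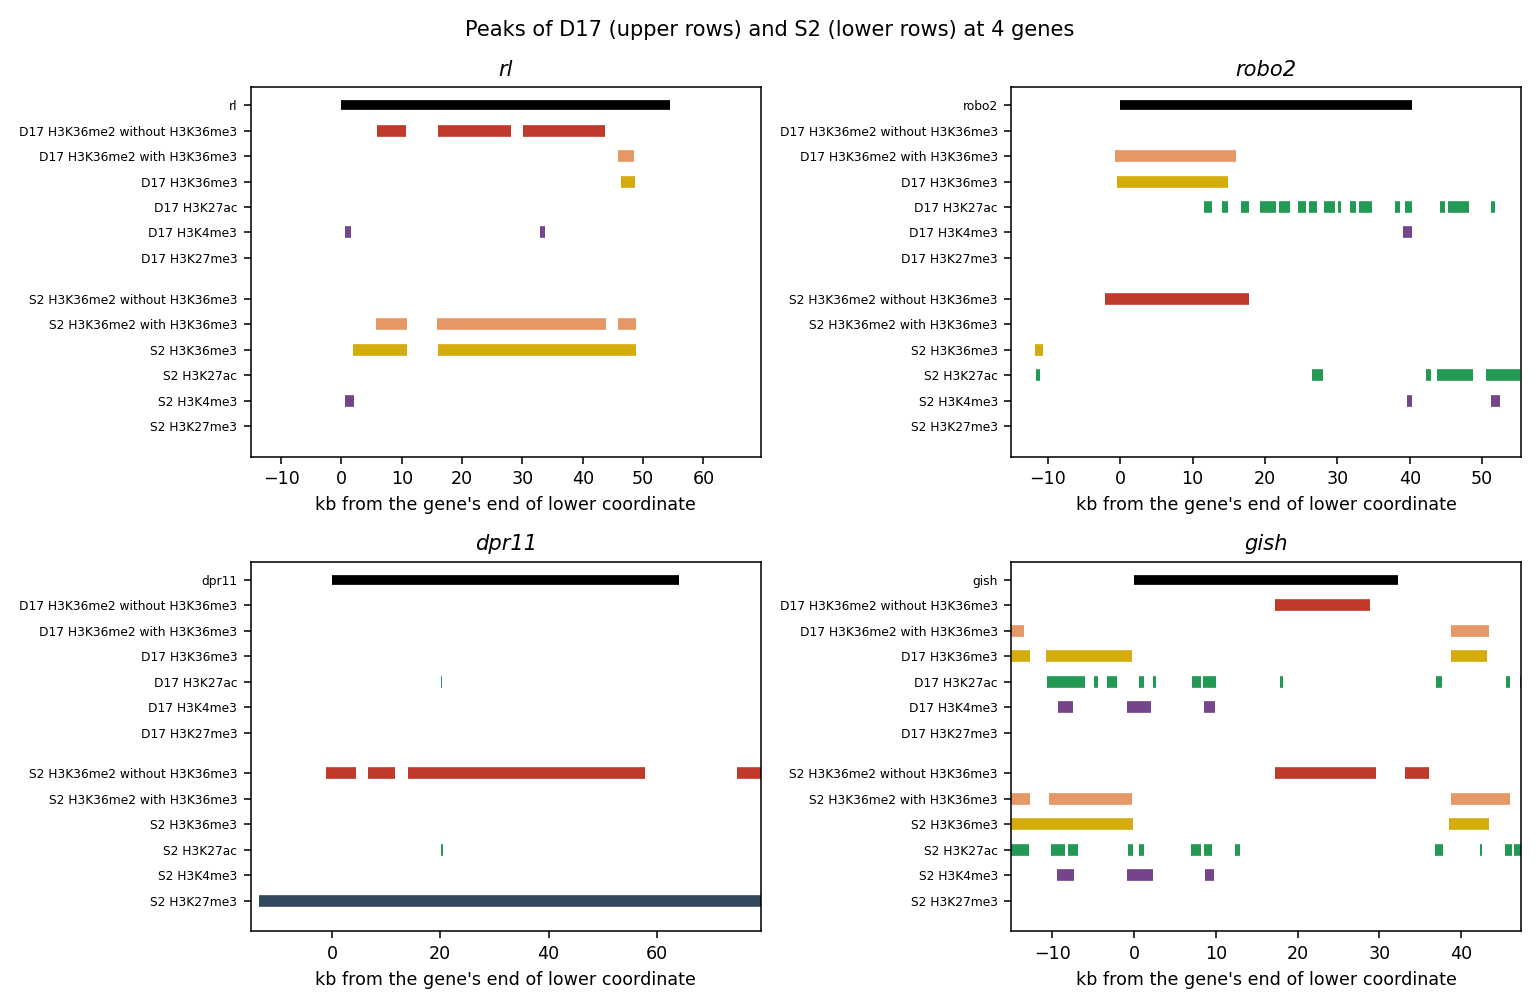
Called peaks of D17 (upper 6 rows of each panel) and S2 (lower 6 rows) at rl, robo2, dpr11 and gish, with the gene as a black bar and the x axis in kb from the gene end of lower coordinate; red bars are me3-free H3K36me2 peaks. In rl the me3-free D17 peaks face S2 H3K36me3 (55.7% and 76.5% of the gene), in robo2 the lines are the other way round, in dpr11 the S2 members lie in H3K27me3, and in gish both lines have a member at the same place.

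Genes with a me3-free peak in both lines were led by gish, the casein kinase gamma gene. Its D17 member covered 11682 bp at fold 1.60 and its S2 member 12359 bp at fold 1.55, and they shared 11640 bp. Neither line had H3K36me3 or H3K27me3 in the gene. In cta, the G alpha gene of gastrulation, the members covered 69.8% of the gene in D17 and 63.7% in S2, with H3K27ac and H3K4me3 at both, while Kc167 H3K36me3 lay over 97.8% of the D17 member. Tollo, a Toll family receptor gene, had 93.6% covered in D17, with H3K27ac over 46.3% of the member, and 56.7% in S2, with none. In chinmo, a zinc finger gene of neuronal timing, the shared 8268 bp lay under H2AK118ub1 in both lines. Cam, the calmodulin gene, had 52.4% covered in D17 and 25.6% in S2, and MESR3 12.1% in D17 and 11.2% in S2. The D17 member in srp, the GATA factor gene of blood cell fate, lay wholly under H3K27ac, and the S2 member did over 95.6% of its width. The gene Scm had 92% of its length under a me3-free D17 peak and 93.9% under a me3-free S2 peak, and no H3K36me3 in either line.

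Other genes held several members or very wide ones. In D17, l(3)80Fg had 5 me3-free peaks over 16.6% of its 215672 bp, and 6 in S2 over 15%. Gprk1, a G protein-coupled receptor kinase gene, had 1 D17 member over 1.41% of its length and 10 S2 members over 33.1%. AGO3, a piRNA pathway Argonaute gene, had no D17 member and 4 S2 members over 26.1%. In Haspin, a histone H3 kinase gene, 2 D17 members covered 42.4% and an S2 member 4.55%. Ac3, an adenylyl cyclase gene, had 85.6% under D17 members and no peak of H3K36me2, H3K36me3 or H3K27me3 in S2. The widest S2 member of all was 53499 bp, mostly in CG31145, with H2AK118ub1 over 98.3% of it. The S2 member of highest −log10 q, 59.7, was 14965 bp wide in luna, a zinc finger gene, with H3K27ac over 95.7% of it.

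Counts of listed genes touched by a member stand beside the share of all protein-coding genes touched, 1.6% in D17 and 4.28% in S2. Of 12 genes of the H3K36 methylation machinery, a me3-free peak touched none in D17 and 1 in S2, JIL-1, which encodes a histone H3 kinase. Of 20 trithorax group genes it touched 1 in each line (5%), osa. Of 21 Polycomb group genes it touched 2 in D17 (9.52%, Su(z)2 and Scm) and 2 in S2 (9.52%, Psc and Scm). None of 8 homeotic genes was touched in either line, and H3K27me3 covered bases of all 8 in both. Of 48 segmentation and appendage genes, 3 were touched in D17 (6.25%, bi, sd and ct) and 4 in S2 (8.33%, ap, bab1, rdo and ct), while H3K27me3 met 33 of them in D17 and 37 in S2.

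Among 22 ecdysone response genes, D17 members touched 2 (9.09%), EcR, the hormone receptor gene, and Eip74EF, and S2 members touched 5 (22.7%), Eip74EF, Eip75B, Hr38, Hr39 and ftz-f1. Of 18 blood cell genes, srp and eater, a phagocytosis receptor gene, were touched in both lines (11.1%). Of 20 imaginal disc genes, 3 were touched in D17 (15%, sd, bi and ct) and 2 in S2 (10%, ap and ct). These shares lie above those of all genes, whose median length is 2161 bp. No ribosomal protein gene of 64 was touched in either line, while the other H3K36me2 peaks touched 7 of them in D17 and 49 in S2. The median lengths of these lists ran between 1392 bp for ribosomal protein genes and 30563 bp for homeotic genes, and the part of length in these counts was not tested.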

How the data were processed

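Chromatin immunoprecipitation and sequencing had been done in 103 libraries, and 44 of the 50 deposited peak lists were used here, 20 from D17, 20 from S2 and 4 from Kc167. Per the submitters' processing notes, the tools were Trim Galore 0.6.4, Bowtie2 2.3.5.1, SAMtools 1.13, bedtools 2.29.2 and MACS2 2.2.6 on dm6; how replicates and input were combined, and any filter after calling, are not given in the sources used here. The deposited score of each peak was 10 times its −log10 q value, which was checked on the D17 and S2 histone mark lists. The deposited fold is a ratio, the authors' enrichment of the peak over background, and −log10 of the q-value is also the authors' deposited value. Read depth is unknown from these files. Members and gene lists were chosen with earlier results of these data known.

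Overlap of 1 bp or more was computed in Python 3.11.15 with pandas 2.3.3 and NumPy 2.4.6. On simulated intervals it recovered 200 of 200 planted overlaps in each line, and its H3K36me3 coverage differed from that of bedtools 2.31.1 at 0 peaks. Exact 95% intervals came from SciPy 1.17.1. Genes were the 13935 protein-coding genes of RefSeq Release 6, and a peak's gene is the one with most bases under it, the shorter on ties. Named genes were those of the 8 members of highest fold per line, the 8 with most bases under members of each line and of both, the 5 per pair of lines with most member bases under H3K36me3 or H3K27me3 of the other, and listed genes touched by a member. Widest peaks, peaks at the edge of the rule, chromosome 4 genes and the peaks of highest −log10 q were chosen after their values were seen. Sequences and promoter motifs were not analysed here. Alternatives covered list length, score, distance to H3K36me3, chromosomes and the overlap required.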

Additional observations from a re-analysis of the deposited data

Results flagged for a closer look

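Of 23 relations compared between the lines, 3 had opposite signs in D17 and S2 with intervals apart in at least 1 line, and the differences between the lines were not tested. For H2AK118ub1, the share of me3-free peaks minus that of the other H3K36me2 peaks was -13.4 percentage points in D17 and 2.66 in S2. The S2 intervals overlapped, at 32.2% to 39.8% for me3-free and 31.3% to 35.3% for other peaks. For Scm it was -6.66 points in D17 and 8.24 in S2. Chromosome 4 held a share of the members that was 7.79 points above its share of the other peaks in D17, and -0.272 points from it in S2. The S2 interval for me3-free peaks on chromosome 4, 9.15% to 33.3%, included the 22% of the whole S2 list.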

How the results depend on the processing

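Of 100 values recomputed under the alternatives, 63 stayed within their interval or within 1.5 times the main count and 37 moved. The H3K27ac and H3K4me2 gaps between members and other peaks kept their direction under each of the 9 alternatives in both lines. Requiring a distance of 1000 bp from H3K36me3, leaving out stretches at skipped H3K36me3 peak numbers, or keeping 2L, 2R, 3L and 3R moved none of the 100. The band of 2000 to 4000 bp, chosen after seeing the data, moved no member share, but in S2 it moved the difference between members and other peaks to -45.2 points for H3K27ac, -35.5 for H3K4me2, 16.8 for H3K27me3 and -7.12 for sharing, against -52.6, -46.4, 8.21 and -20 as reported. The cause of the other changes was not tested, beyond the shorter lists that some settings make.

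With the higher-scoring 50% of the H3K36me2 list, D17 had 68 members, with 51.5% under H3K27ac, 61.8% under H3K4me2 and a median gene length of 18440 bp, and S2 had 166, with 50.6%, 59.6%, 13.9% under H3K27me3 and 33.7% shared with the other line. With the higher-scoring 50% of the H3K36me3 list, D17 had 917 members, with 62.7% under H3K27ac, 69.6% under H3K4me2, 66.6% shared and a median gene of 18191 bp, and S2 had 1652, with 54.7%, 55.8%, 16.4% under H3K27me3, 44.9% shared and 13826 bp. With lists of equal length, 24.9% of D17 members were shared, and S2 had 194 members, with 46.9% under H3K27ac, 56.2% under H3K4me2, 14.9% under H3K27me3 and 48.5% shared. Counting only overlaps of 50% of the width, D17 gave 10.7% under H3K27ac, 6.01% under H3K4me2 and 32.6% shared, and S2 11.6%, 9.65% and 20.9% under H3K27me3. Without chromosome 4 and the proximal stretches, also chosen after seeing the data, D17 gave 51.5% under H3K27ac and 52.7% under H3K4me2, and S2 35.2% under H3K27ac, 32.9% shared and a median gene of 20312 bp.

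The S2 difference for H3K27me3, members minus other peaks, was 8.21 points and turned to -4.1 with the H3K36me2 list cut to its higher-scoring 50%, -4.42 with the H3K36me3 list cut so, and -2.93 at equal length. The S2 difference in sharing with D17 was -0.596 points in the higher-scoring 50% of the H3K36me2 list and -7.6 for overlaps of 50% of the width, and turned to 1.17 with the higher-scoring 50% of the H3K36me3 list. Read depth, replicate spread and mappability could not be read from these lists. No paired analysis was possible because each list combines the replicates of an antibody and a line.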
